A study of Homo sapiens with 8 samples.

Results

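The IQGAP scaffolds are the human genes IQGAP1, IQGAP2 and IQGAP3, here 3 of 18244 genes on the array. They were found as every probe set whose array annotation gives an IQGAP symbol alone, which was 10 of 45284 single-symbol probe sets: 4 for IQGAP1, 4 for IQGAP2 and 2 for IQGAP3. The family was chosen by measured values, namely a higher IQGAP2 signal with EN2 than with vector in A549 that was already known from these arrays. All IQGAP values of that comparison are therefore a description with no test, as is IQGAP2 between the vector controls, which shares its arrays. Tests are given for the family in PC9, and for IQGAP1 and IQGAP3 between the vector controls of the lines.

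IQGAP proteins are large scaffolds that bind actin filaments and calmodulin. Their GAP-related domain resembles that of Ras GTPase-activating proteins but does not speed GTP hydrolysis. IQGAP1 is found in most cells, where it links the cytoskeleton to E-cadherin and β-catenin at junctions, to microtubule ends and to MAPK kinases. IQGAP2 is best known from liver and IQGAP3 from proliferating cells, and Iqgap2-deficient mice develop liver tumours.

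The arrays held RNA of A549 and PC9, established human lung adenocarcinoma lines, in 4 groups of 2 arrays: A549 with EN2, A549 with the Neo vector, PC9 with EN2 and PC9 with the Neo vector. EN2, engrailed homeobox 2, is a transcription factor that patterns the midbrain and hindbrain. Both EN2 and vector cells had been infected with retroviral supernatant from 293FT packaging cells and selected with genemycin, as the labels spell it. A549 grew in F-12K and PC9 in Dulbecco's medium. The sources used here name neither the promoter that drives EN2 nor whether each line was a clone or a pool.

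Values are log2 signals after RMA, a background correction, normalisation and summary of array probes, and a difference of 1 is a doubling. A549 arrays had medians of 6.33 to 6.35 and PC9 arrays 6.10 to 6.11, and arrays of a group correlated at 0.997 across probe sets. The lines may have been normalised apart, so levels set across them carry that limit. The 95th percentile of 100 ERCC spike-in probe sets, 4.42 in A549 and 3.94 in PC9, served as a measure of background. All 6 epithelial markers lay above it on every array of both lines, with a mean of 10.11 to 10.19 in A549 EN2 arrays against 10.62 to 10.66 in A549 vector arrays. So did 2 of 4 leukocyte markers (not PTPRC or LYZ) and 2 of 5 fibroblast markers (not COL3A1, DCN or LUM) in both lines. Of 4 endothelial markers 2 did in A549 and 3 in PC9 (not TEK). The brighter EN2 probe set read 7.71 and 7.62 in A549 EN2 arrays against 6.48 and 6.57 in A549 vector arrays, and it rose 2.21-fold (limma adjusted p = 0.000385 over 45284 probe sets). In PC9 it read 6.24 and 6.39 with EN2 against 5.86 and 5.78 with vector, a log2 change of 0.50 that did not pass (limma adjusted p = 0.115). The dimmer EN2 probe set, also above background on every array, overlapped between EN2 and vector in both lines, with an A549 change of 0.050 (limma adjusted p = 0.931) and a PC9 change of 0.16 (limma adjusted p = 0.993). The 18S rRNA control signal was 11.66 and 12.12 in A549 EN2 arrays, below the 12.44 and 12.74 of A549 vector arrays, while all PC9 arrays read 6.05 to 6.095. The 3′ minus 5′ signal of the actin control, a sign of RNA quality, was 0.98 and 0.88 in A549 EN2 arrays against 0.79 and 0.78 in A549 vector arrays. In PC9 it was higher than on any A549 array, at 1.29 and 1.03 with EN2 and 1.09 and 1.13 with vector. The part of the actin signal, like that of 18S, in the A549 values and between the lines was not tested beyond the 18S alternatives given with the results.

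IQGAP2 lies on chromosome 5 and, unlike IQGAP1 on chromosome 15 and IQGAP3 on chromosome 1, has 3 annotated starts in the promoter table. The 250 bases before each IQGAP2 start are shown from RefSeq (GRCh38.p14, plus strand). IQGAP2 was taken because its A549 signal led to the choice of the family. Capitals mark TAAT, the core of many homeodomain sites, and GGGCGG, the GC box, each on either strand.
IQGAP2 start 1, chr5:76403035-76403284: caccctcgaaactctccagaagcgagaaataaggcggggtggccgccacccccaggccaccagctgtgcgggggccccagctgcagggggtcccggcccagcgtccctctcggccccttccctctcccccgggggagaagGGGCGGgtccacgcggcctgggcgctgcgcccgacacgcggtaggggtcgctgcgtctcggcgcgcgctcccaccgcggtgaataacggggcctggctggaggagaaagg
IQGAP2 start 2, chr5:76547159-76547408: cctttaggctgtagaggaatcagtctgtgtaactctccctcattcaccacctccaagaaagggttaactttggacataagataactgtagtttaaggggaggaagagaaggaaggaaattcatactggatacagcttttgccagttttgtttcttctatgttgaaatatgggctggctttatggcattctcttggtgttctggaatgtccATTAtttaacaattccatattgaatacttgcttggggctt
IQGAP2 start 3, chr5:76608861-76609110: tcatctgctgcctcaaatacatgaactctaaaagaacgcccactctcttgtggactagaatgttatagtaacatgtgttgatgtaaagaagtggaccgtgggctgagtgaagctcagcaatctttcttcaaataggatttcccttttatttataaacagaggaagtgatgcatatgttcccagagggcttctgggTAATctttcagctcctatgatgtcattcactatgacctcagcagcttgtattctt

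The first IQGAP2 window is GC-rich and the later ones are not: 73.6% G or C with 26 CG pairs, against 40.0% with 0 and 40.8% with 2. The windows of IQGAP1 (74.4%, 25 CG pairs) and IQGAP3 (63.2%, 15 CG pairs) resemble the first. Over 35116 promoter windows the median was 58.0% and 11 CG pairs. TAAT was absent from the first IQGAP2 window, from IQGAP1 and from IQGAP3, and present once in each later IQGAP2 window. It was present in 47.44% of all windows. The longer site TAATTA, which contains TAAT, was in none of the 5 IQGAP windows and in 4.35% of all. GGGCGG occurred 1 time in the first IQGAP2 window, 8 times in IQGAP1 and 2 times in IQGAP3, and 42.64% of all windows held it. The array annotation does not place the probe sets among the 3 starts, and no binding of EN2 was measured.

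IQGAP2 was the member whose A549 signal led to the choice of the family, and all 4 of its probe sets read higher with EN2 there. The dimmest of the 4 was below background on every A549 array, so its difference is not read. The brightest, 11758225_s_at, read 6.90 and 6.87 in A549 EN2 arrays against 5.11 and 4.98 in A549 vector arrays. All these values lay above the spike-in background, and the EN2 arrays lay above the vector arrays with no overlap. The difference was 1.84 ± 0.11 on the log2 scale (SE from the limma fit, n = 2 arrays each), or 3.57-fold. RNA of whole cultures was measured, so more cells with IQGAP2 transcript and more transcript per cell cannot be told apart. The suffix _s_at means that some probes can match transcripts of other genes, while the other IQGAP2 probe sets end in _a_at, for several transcripts of a single gene.

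The second probe set, 11721061_a_at, read 5.78 and 5.92 with EN2 in A549 against 4.49 and 4.73 with vector, a 2.36-fold difference (log2 1.24 ± 0.12 SE). The third, 11745509_a_at, read 5.27 and 5.18 with EN2 in A549 against 3.68 and 3.85 with vector. Its vector values were below the spike-in background, so the difference is a bound of at least 1.74-fold, taken against that background. The fourth, 11747354_a_at, read 3.83 and 3.91 with EN2 against 3.25 and 3.56 with vector, all below background, and no fold is given. Its direction was that of the other IQGAP2 probe sets.

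In A549, EN2 arrays lay above vector arrays with no overlap in 4 of 4 IQGAP2 probe sets, 2 of 4 of IQGAP1 and 0 of 2 of IQGAP3, as in 22.4% of all probe sets. Since this comparison led to the choice, nothing is read from these counts. On the brightest IQGAP2 probe set the difference was 1.76 without the outer arrays of the 18S rRNA signal and 1.74 with that signal as a covariate, beside 1.84. Without those outer arrays, 1 array was left in each A549 group. Leaving out any 1 array gave 1.77 to 1.90.

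**Figure D1:**
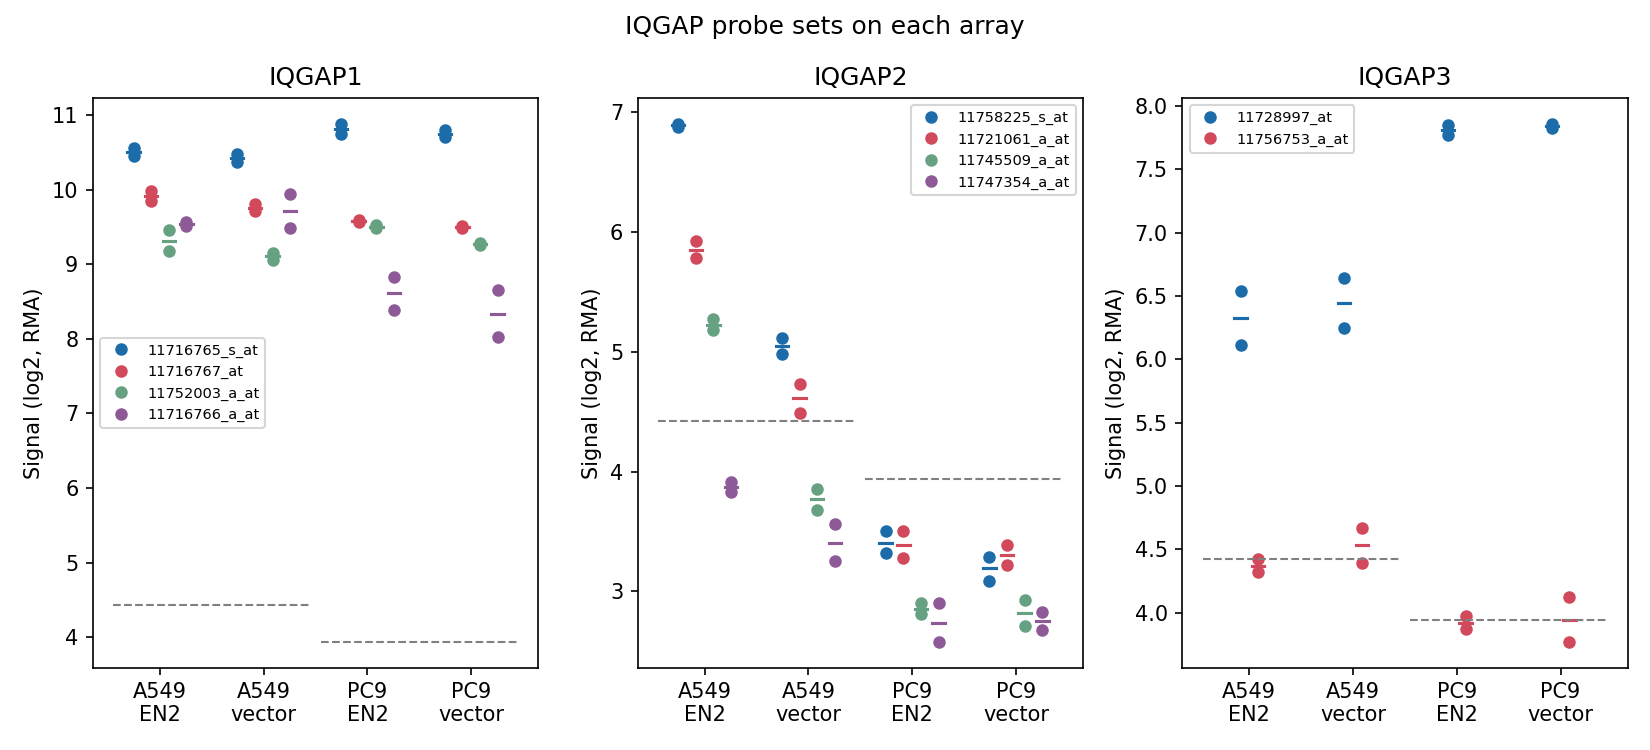
Signal (log2, RMA) of each IQGAP probe set on each array, with EN2 left of vector in each line; points are single arrays, short bars are group means and dashed lines the spike-in background of the line. IQGAP2 steps down between A549 EN2 and A549 vector (6.89 and 5.05 on the brightest probe set) and lies under the background line in PC9.

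In PC9, IQGAP2 was not above the spike-in background on any array with any of its 4 probe sets. The brightest probe set read 3.50 and 3.32 in PC9 EN2 arrays against 3.09 and 3.29 in PC9 vector arrays. The PC9 EN2 arrays lay just above the PC9 vector arrays on that probe set, and the groups overlapped on the other IQGAP2 probe sets. The log2 change was 0.22 (95% interval −0.02 to 0.46), which was not called (limma adjusted p = 0.841). At this signal a change of IQGAP2 in PC9 cannot be read.

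The level of IQGAP2 ran from A549 EN2 (6.89 ± 0.020, SD, n = 2 arrays) through A549 vector (5.05 ± 0.092) to PC9 EN2 (3.41 ± 0.13) and PC9 vector (3.19 ± 0.14). Both PC9 groups are under the PC9 background of 3.94, so their order is not read, and the A549 step is the value the family was chosen by. Set against the PC9 background, the A549 vector signal was 2.16-fold higher on this probe set and 1.59-fold on 11721061_a_at. On 11721061_a_at the A549 vector mean of 4.61 was near the A549 background of 4.42. The A549 EN2 signal was 7.72-fold above the PC9 background on 11758225_s_at, 3.76-fold on 11721061_a_at and 2.44-fold on 11745509_a_at. If the lines were normalised apart, these folds are not lower bounds. The log2 difference of the vector means on 11758225_s_at was 1.86, and 1.52 with quantile normalisation over all arrays. On 11721061_a_at it was 1.31, and 0.96 with that normalisation.

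IQGAP1, the broadly expressed scaffold, was well above background on all arrays and overlapped between EN2 and vector on its brightest probe set in both lines. Its brightest probe set, 11716765_s_at, read 10.56 and 10.45 in A549 EN2 arrays against 10.48 and 10.37 in A549 vector arrays. In PC9 it read 10.75 and 10.88 with EN2 against 10.71 and 10.80 with vector. The log2 differences were 0.082 in A549 and 0.067 in PC9 (PC9 95% interval −0.10 to 0.23, limma adjusted p = 1). The levels averaged 10.51 ± 0.078 in A549 EN2 and 10.42 ± 0.077 in A549 vector, both under 10.82 ± 0.091 in PC9 EN2 and 10.75 ± 0.063 in PC9 vector (SD, n = 2 arrays). The arrays of the lines do not overlap, while EN2 and vector arrays overlap within each line.

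All 4 IQGAP1 probe sets had a positive PC9 change, from 0.067 to 0.27, and none passed the test. The largest, that of 11716766_a_at, was −0.046 without PC9 vector replicate 2. All 4 read the same RNA, so their shared direction is not independent evidence. On 11752003_a_at PC9 EN2 arrays read 9.48 and 9.52 against 9.28 and 9.25 in PC9 vector arrays. There the PC9 arrays did not overlap, and the change of 0.23 had an unadjusted p = 0.0334 (95% interval 0.023 to 0.446), adjusted to 0.734 by limma over all probe sets. In A549 the same probe set read 9.46 and 9.17 with EN2 against 9.15 and 9.06 with vector. On 11716767_at EN2 arrays lay above vector arrays in both lines, by 0.16 in A549 and 0.073 in PC9. With the 18S rRNA covariate both A549 values turned direction, to −0.060 for 11716767_at and −0.159 for 11752003_a_at.

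The probe set 11716766_a_at departed from the other IQGAP1 probe sets. It read 9.57 and 9.51 in A549 EN2 arrays against 9.49 and 9.94 in A549 vector arrays, and 8.83 and 8.39 in PC9 EN2 arrays against 8.65 and 8.02 in PC9 vector arrays. The spread between arrays of a group reached an SD of 0.45 (PC9 vector, n = 2), more than the EN2 difference in either line (−0.18 in A549 and 0.27 in PC9). The IQGAP1 interval for PC9 on this probe set, −0.21 to 0.75, was the widest of the family.

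IQGAP3, the member known from proliferating cells, did not separate with EN2 in either line. The brighter probe set, 11728997_at, read 6.11 and 6.54 in A549 EN2 arrays against 6.25 and 6.64 in A549 vector arrays. In PC9 it read 7.77 and 7.85 with EN2 against 7.83 and 7.86 with vector. The groups overlapped in both lines, at log2 differences of −0.12 in A549 and −0.032 in PC9 (PC9 95% interval −0.38 to 0.32, limma adjusted p = 1). In A549 the first array was the lower one in both groups, for IQGAP3 and for the 18S rRNA signal. With that signal as a covariate the A549 value of IQGAP3 was 0.62, and without the outer arrays of that signal 0.29, so that its direction turned. The levels averaged 6.33 ± 0.31 in A549 EN2 and 6.44 ± 0.27 in A549 vector, under 7.81 ± 0.058 in PC9 EN2 and 7.84 ± 0.020 in PC9 vector (SD, n = 2 arrays), and again the arrays of the lines do not overlap. The dimmer IQGAP3 probe set, 11756753_a_at, read 3.77 to 4.67 over all arrays, around the background of its line.

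Across the family, 0 of 10 IQGAP probe sets were called in PC9 by limma at an adjusted p under 0.05, and 1 of 10 had an unadjusted p under it. Over all probe sets 0.278% were called in PC9. PC9 EN2 arrays lay above PC9 vector arrays with no overlap in 3 of 10, 2 of IQGAP1 and 1 of IQGAP2, against 17.1% of all probe sets. The PC9 intervals of single probe sets reached 0.751 for IQGAP1 (11716766_a_at) and, for the brighter IQGAP3 probe set, ran from −0.38 to 0.32. The replicate arrays are not stated to be separate cultures, so p-values measure only the spread between these samples.

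**Figure D2:**
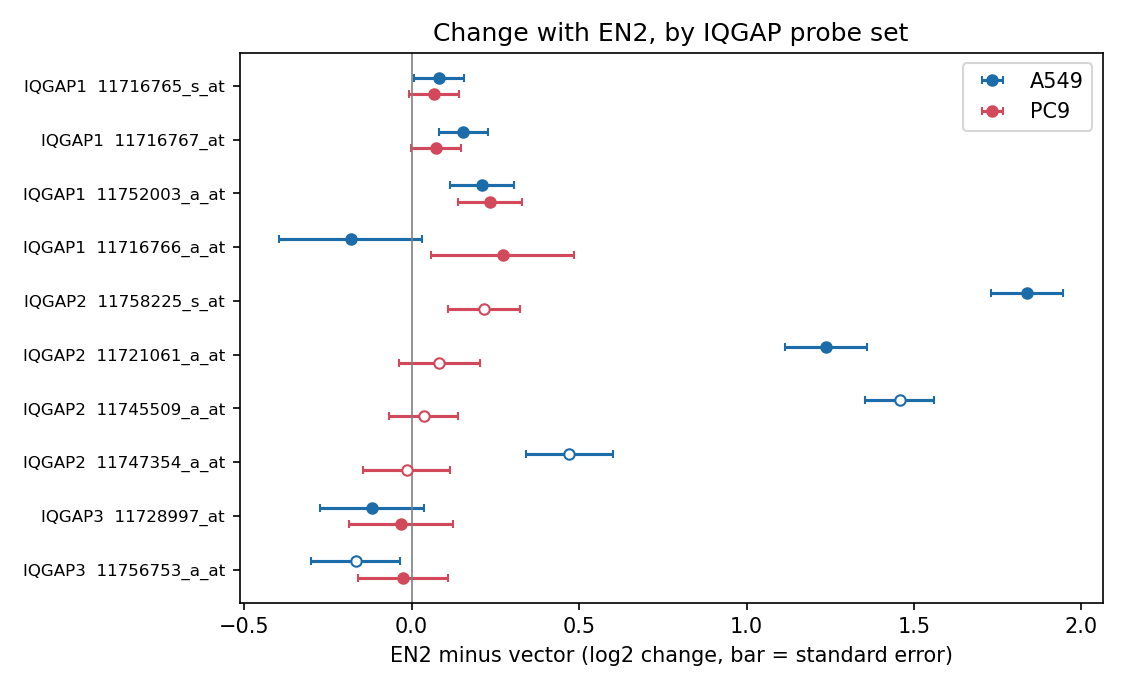
Log2 change of each IQGAP probe set with EN2 relative to vector, in A549 and in PC9, with the standard error of the fit as bars. Open points mark comparisons with a group under the spike-in background on both arrays, whose size is not read. The filled IQGAP2 points, both in A549, lie at 1.24 and 1.84, and the filled PC9 points lie between −0.032 and 0.27.

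The vector controls were compared to see how the lines differ without EN2. The brighter IQGAP3 probe set read 6.25 and 6.64 in A549 vector arrays against 7.83 and 7.86 in PC9 vector arrays. It was 2.64-fold lower in A549 (log2 −1.40 ± 0.16 SE, limma adjusted p = 1.8e-05), with no overlap of the groups. As the mean of both IQGAP3 probe sets it was −0.405 (limma adjusted p = 0.0106). The dimmer IQGAP3 probe set went the other way, by 0.59 (limma adjusted p = 0.00248), at signals around background, and lost its call with quantile normalisation over all arrays (0.19, limma adjusted p = 0.217).

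IQGAP1 probe sets did not share a direction between the vector controls. The brightest was lower in A549 by 0.33 (limma adjusted p = 0.00264), and 11752003_a_at by 0.16 without passing the test (limma adjusted p = 0.153). The probe sets 11716767_at (0.26, limma adjusted p = 0.00888) and 11716766_a_at (1.38, limma adjusted p = 0.000203) were higher in A549. With each array centred on its median, 11716767_at had 0.020 and lost its call, while 11752003_a_at had −0.40 and gained one (limma adjusted p = 0.00433). The 11716767_at call also ended without A549 vector replicate 1 (0.21). In all, 5 of 6 IQGAP1 and IQGAP3 probe sets were called between the vector controls. Since 74.4% of all probe sets were called in this comparison, a share of this size is not particular to the family.

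The partners of IQGAP scaffolds were followed in lists of 106 genes, of which 95 had a single-symbol probe set. These lists, called partner lists, also hold RasGAP domain genes and cytokinesis and proliferation genes, which were not chosen as partners. The shares below are those of all lists together. In A549, CLASP2 and CDK1 rose and CDH1 and RHOC fell, 4 of 95 or 4.21%, against 2.72% of all 18244 genes. By direction, 1.57% of all genes were called higher and 1.15% lower in A549. In PC9, LGR4 alone was called, lower, so that 1 of 95 (1.05%) passed against 0.367% of all genes, with 0.148% called higher and 0.219% lower. The median log2 change of the list genes was −0.011 in A549 and 0.001 in PC9, beside −0.001 and 0.004 over all genes. None of the 4 A549 calls remained when the 18S rRNA signal was a covariate, and only that of CDH1 remained with the A549 arrays fitted alone. That signal follows the A549 groups, and as a covariate it raised the SE, from 0.095 to 0.187 for CDH1 and from 0.086 to 0.172 for CDK1. A call could thus be lost without a smaller change. Without its outer arrays 1 array is left in each A549 group, so only the changes are given. With the covariate and without the outer arrays, CDK1 had 0.635 and 0.587, CLASP2 0.223 and 0.265, and RHOC −0.22 and −0.276, so that the value of CDK1 was larger and the others smaller. The part of the 18S rRNA signal in these calls was not tested. Unadjusted p-values under 0.05 numbered 14 of 95 in A549 and 5 of 95 in PC9, against 3175 and 1232 of 18244 genes.

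**Figure D3:**
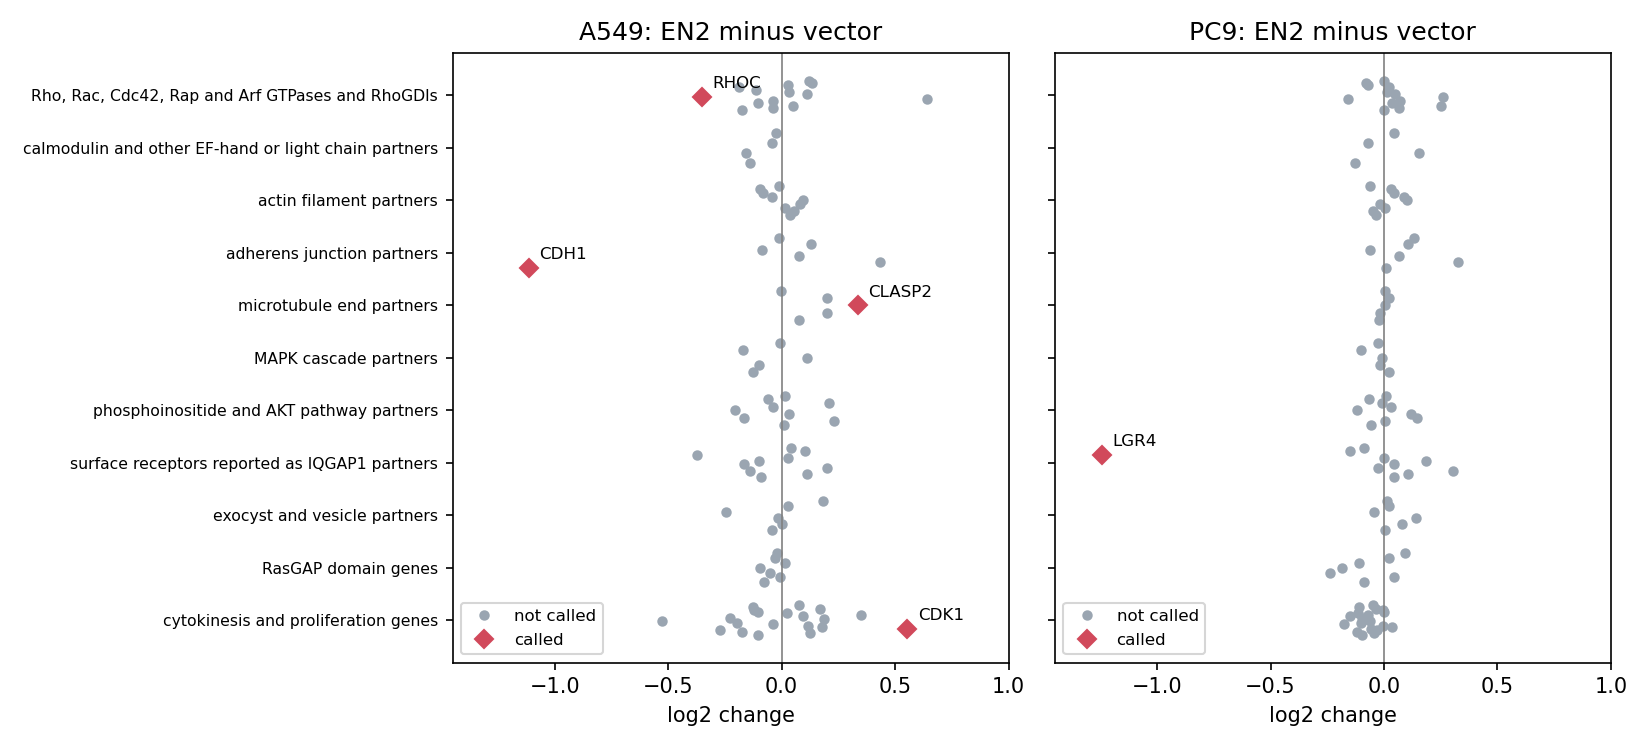
Log2 change with EN2 of each measured gene of the partner lists, in A549 (left) and PC9 (right); diamonds mark genes called by limma at an adjusted p under 0.05. Most of the 95 genes lie near 0, and the called ones, 4 in A549 and 1 in PC9, belong to 5 lists.

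Among the small GTPases and their RhoGDI inhibitors, RHOC, a GTPase of actomyosin contraction, fell in A549 and the other 13 of 14 did not pass. It read 10.25 and 10.32 in A549 EN2 arrays against 10.60 and 10.67 in A549 vector arrays, 1.28-fold lower (limma adjusted p = 0.0227), and all 3 of its probe sets fell. The RHOC call ended without EN2 replicate 1 (−0.31) or vector replicate 2 (−0.31) of A549, and without either PC9 vector array, which left its value at −0.35. In PC9, RHOC read 11.06 and 10.96 with EN2 against 10.76 and 10.74 with vector, a change of 0.26 that did not pass (limma adjusted p = 0.24). The A549 and PC9 changes differed by limma's test of the difference for 3 of 95 list genes, RHOC, CDH1 and MET, and for 0.784% of all genes.

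Of 6 adherens junction partners, CDH1, the gene of E-cadherin, fell in A549 and 5 did not pass. It read 8.49 and 8.64 in A549 EN2 arrays against 9.72 and 9.65 in A549 vector arrays, 2.17-fold lower (limma adjusted p = 0.000384), on both of its probe sets. The CDH1 value was −0.98 with the 18S rRNA covariate and −1.08 without the outer arrays of that signal. In PC9 no junction gene passed, and the largest change was that of CDH2, the gene of N-cadherin (0.325, limma adjusted p = 0.802).

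Of 5 genes of microtubule ends, CLASP2, which stabilises growing microtubules, rose 1.26-fold in A549, at 8.92 and 8.89 in EN2 arrays against 8.63 and 8.51 in vector arrays (limma adjusted p = 0.0477). Its 10 probe sets ran from −0.029 to 0.41 with none called when probe sets were tested singly, and the CLASP2 call ended without any 1 of the 8 arrays (0.28 to 0.40). In PC9 none of these genes passed, and the largest change was that of APC (0.024). Of 20 cytokinesis and proliferation genes, chosen because IQGAP3 is known from dividing cells, CDK1, the mitotic kinase, rose in A549 and 19 did not pass. CDK1 read 9.70 and 9.82 in A549 EN2 arrays against 9.23 and 9.18 in A549 vector arrays, 1.47-fold higher (limma adjusted p = 0.0111). Its call ended without A549 vector replicate 2 (0.53) and with the mean of its probe sets (0.39). The median of these 20 genes was −0.007 in A549 and −0.066 in PC9, where none passed and AURKB (−0.175) changed most.

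Of 10 surface receptors reported to bind IQGAP1, none passed in A549, where LGR4, the R-spondin receptor, had the largest change (−0.37, limma adjusted p = 0.208). In PC9 LGR4 fell on 1 of its 2 probe sets, at 6.87 and 7.22 in EN2 arrays against 8.35 and 8.23 in vector arrays, 2.37-fold lower (limma adjusted p = 0.00574). The other LGR4 probe set had 0.038. The LGR4 call ended without PC9 EN2 replicate 1 (−1.07), vector replicate 1 (−1.19) or vector replicate 2 (−1.30).

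No gene of the other lists passed in either line. Of 9 actin filament partners, the largest changes were those of CTTN in A549 (−0.097) and ACTR3 in PC9 (0.101). Of 4 EF-hand and light chain genes, S100P changed most in both, at −0.16 in A549 and 0.15 in PC9, and MAPK3 did so among 5 MAPK cascade genes, at −0.17 and −0.10. Of 9 phosphoinositide and AKT genes, PIP5K1A had 0.23 in A549 and PIP5K1C 0.145 in PC9. Of 6 exocyst and vesicle genes, EZR, which links actin to the membrane, had −0.25 in A549 and EXOC7 0.14 in PC9. Of 7 RasGAP domain genes, related to the IQGAPs by that domain, RASAL1 had −0.096 in A549 and RASA4 −0.24 in PC9.

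Of the neighbours of IQGAP2 on chromosome 5, POC5, F2RL2 and F2R were above background in A549, and none of them passed the test there. F2RL2, the gene of a protease-activated receptor, lies within IQGAP2 in the reference annotation, and read 6.77 and 6.82 in A549 EN2 arrays against 6.82 and 6.84 in A549 vector arrays. Its log2 change in A549 was −0.034 (limma adjusted p = 0.905). In PC9, F2RL2 read 4.04 and 3.99 with EN2 against 3.97 and 3.91 with vector, around the PC9 background of 3.94. Its PC9 change of 0.073 is therefore not read. F2R, the thrombin receptor gene that follows IQGAP2, read 6.46 and 6.58 in A549 EN2 arrays against 6.36 and 6.35 in A549 vector arrays, a change of 0.17 (limma adjusted p = 0.379). POC5 had 0.108 in A549 (limma adjusted p = 0.68). SV2C and S100Z were under the background on every array of both lines, and F2R on every PC9 array, so that a change there could not be read. None of the 6 measured neighbours of IQGAP1 or the 6 of IQGAP3 passed in either line, and MEF2D beside IQGAP3 had the largest A549 change (0.46, limma adjusted p = 0.0909). MEF2D was called without A549 EN2 replicate 2 (0.625, limma adjusted p = 0.038) and with a replicate block, and had −0.052 with the 18S rRNA covariate. TTC24 beside IQGAP3 was under the background on every array.

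**Figure D4:**
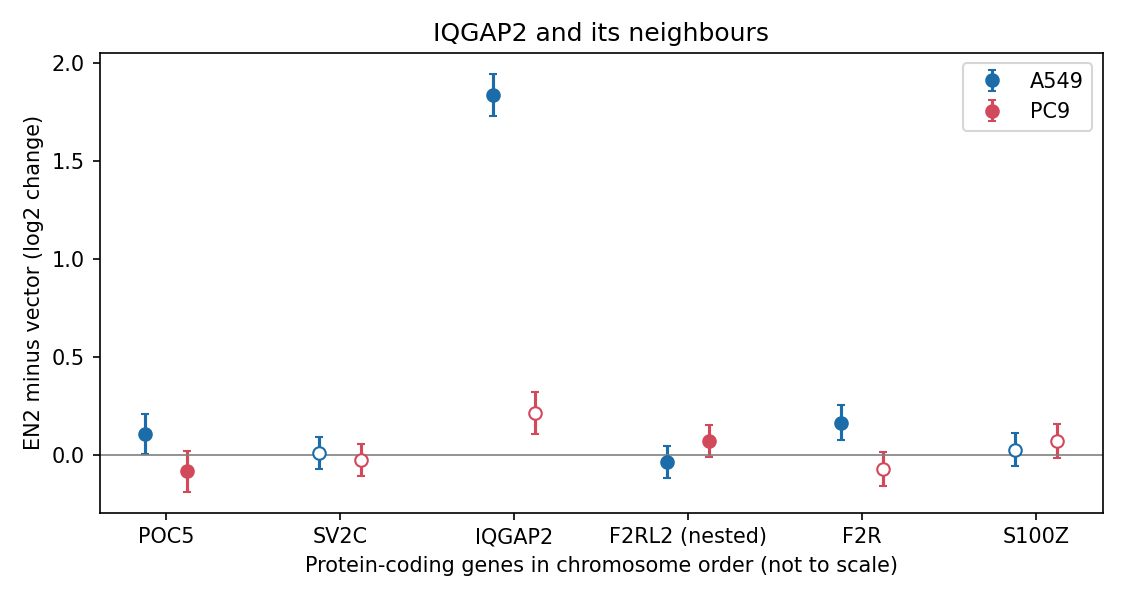
Log2 change with EN2 relative to vector of the brightest IQGAP2 probe set and of the measured protein-coding genes beside and within IQGAP2, with standard errors as bars, in A549 and PC9. Open points mark comparisons with a group under the spike-in background on both arrays, whose size is not read. The A549 value of IQGAP2 is 1.84, and the filled A549 points of POC5, F2RL2 and F2R lie between −0.034 and 0.17.

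Genes with group means most like those of IQGAP2 were sought by the root mean square distance of means centred over the 4 groups. Of the 18243 other genes, those with symbols containing orf or beginning with LOC, LINC or MIR were left out of the ranking. The PC9 means of IQGAP2, XYLT1 and KLRC1 were under the PC9 background and those of NR4A3 at it, so the distances and their order are only approximate. The nearest was GREM1, a secreted BMP antagonist, at a distance of 0.10 on the log2 scale. It averaged 8.71 in A549 EN2 and 6.84 in A549 vector, and 5.02 in PC9 EN2 and 5.09 in PC9 vector. NR4A3, a nuclear receptor (0.19), XYLT1, which starts glycosaminoglycan chains (0.205), and KLRC1, a lectin-like receptor (0.217), followed. SUSD2 (0.29) and the MAPK kinase gene MAP2K6 (0.31) were next, and 4 of the 6 nearest remained among the 6 with quantile normalisation over all arrays. The list includes the A549 comparison that led to the choice of IQGAP2, and is a description.

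**Figure D5:**
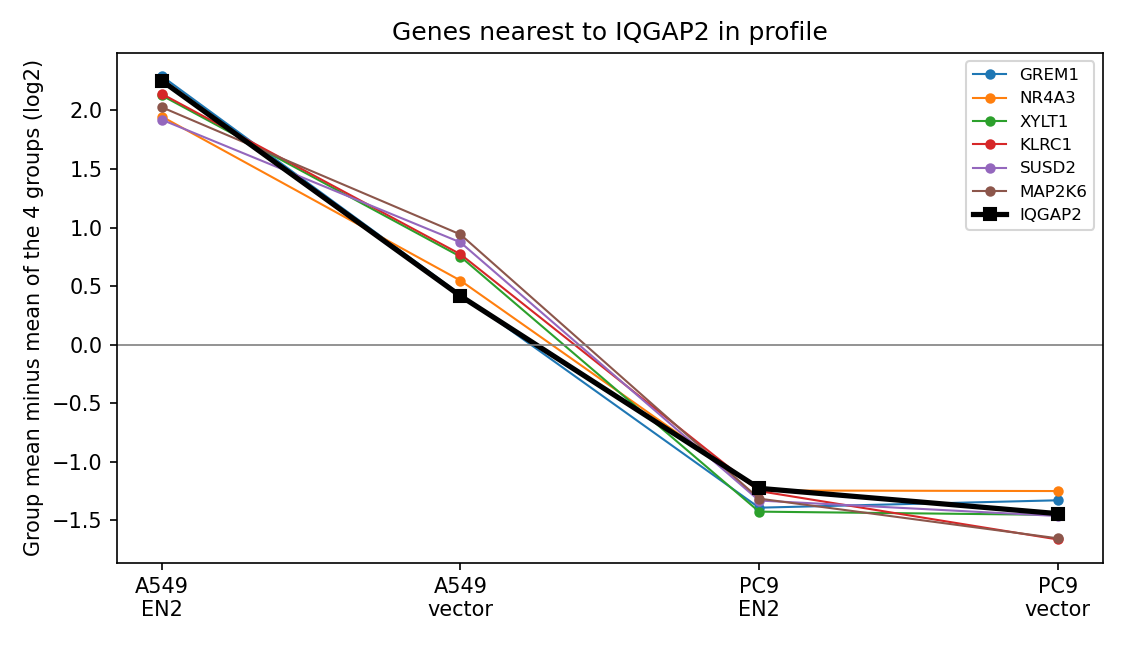
Group means, each centred on the mean of the 4 groups (log2), for IQGAP2 (black) and the 6 genes nearest to it, with EN2 left of vector in each line. All lie highest in A549 EN2, next in A549 vector, and low in both PC9 groups, where the IQGAP2, XYLT1 and KLRC1 signals are under background.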

How the data were processed

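Biotin-labelled cDNA of 8 RNA samples was hybridised to single-colour arrays. The authors deposited log2 values. They come from RMA by the submitters' processing notes, which give no version or statement on whether the lines were normalised together or apart. The table held 49495 probe sets, of which 45284 carry 1 symbol, 1333 several and 2878 none in the array annotation. Symbols were updated by Entrez identifier to GRCh38.p14 (45214 matched), and promoter windows are RefSeq's.

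All 8 arrays entered a single model with 1 mean for each group in limma 3.58.1 in R 4.3.3 (lmFit, then eBayes with an intensity trend, two-sided, 4 residual degrees of freedom). IQGAP probe sets were tested among 45284 probe sets. List genes and neighbours were tested among 18244 genes, each represented by its probe set with the highest mean. Adjustment was by Benjamini-Hochberg, and a feature was called at an adjusted p under 0.05. An exact permutation test of 2 against 2 arrays cannot give a two-sided p under 0.333. Dim probe sets were kept. Precision is limited by having 2 arrays in a group.

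Members, lists, rules and alternatives were chosen with earlier results of these data known. Named were all IQGAP probe sets, EN2, every called list gene or else the largest change of a list, 3 neighbours to each side and nested ones, and the 6 genes nearest to IQGAP2. Alternatives covered normalisation, prior variance, the arrays fitted, a replicate block, a background filter, the 18S rRNA signal, the mean of a gene's probe sets and leaving out each array. The method was tested on simulated data.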

Additional observations from a re-analysis of the deposited data

Results flagged for a closer look

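The change with EN2 differed between the lines for 3 genes of the partner lists, by limma's test of the difference itself adjusted over 18244 genes, of which 143 (0.784%) passed. For CDH1, the A549 change minus the PC9 change was −1.125 (adjusted p = 0.00729), with both A549 EN2 arrays below both A549 vector arrays and overlapping PC9 groups. For RHOC the difference was −0.611 (adjusted p = 0.0189), with both EN2 arrays below both vector arrays in A549 and above them in PC9. MET, the hepatocyte growth factor receptor gene, had a difference of −0.446 (adjusted p = 0.0485). When probe sets were tested singly, none of the 6 of MET passed (−0.529 to −0.298), while 1 of 2 did for CDH1 and 3 of 3 for RHOC. MET read 11.43 and 11.37 in A549 EN2 arrays against 11.55 and 11.53 in A549 vector arrays, and 9.76 and 9.71 in PC9 EN2 arrays against 9.42 and 9.45 in PC9 vector arrays, and neither change was called alone (limma adjusted p = 0.255 and 0.102).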

How the results depend on the processing

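Of 246 values of the main comparisons under the alternatives, 208 kept their direction and side of the threshold or, without a test, moved by less than the spread between arrays. The IQGAP changes in A549 have no test. Alternatives that alter only the variance estimate, the features or the PC9 arrays could not move them. Part of this count was therefore fixed in advance, and it is not a measure of how firm those changes are. With the 18S rRNA covariate the A549 change was −0.103 for IQGAP1, 1.74 for IQGAP2 and 0.618 for IQGAP3 (brightest probe sets). Without both outer 18S rRNA arrays of A549, which left 1 array in each A549 group, it was −0.027, 1.76 and 0.293. IQGAP2 had 1.98 with quantile normalisation and 1.25 as the mean of its probe sets. Between the vector controls the covariate, which itself separates the lines, gave 1.386 (IQGAP1 11716765_s_at), −0.393 (IQGAP1 11716766_a_at), −8.198 (IQGAP3 11728997_at) and −0.582 (IQGAP3 11756753_a_at), and 0 calls among 6. The mean of the IQGAP1 probe sets was 0.289, against −0.326 for the brightest. Apart from the covariate's separation of the lines, the cause was not tested. Partner list genes higher in A549 numbered 1 with quantile normalisation, constant prior variance or the mean of probe sets, and 0 with the A549 arrays alone or the covariate. Those lower numbered 1 with constant prior variance or the A549 arrays alone, and 0 with the covariate. Leaving out 1 array at a time gave 0 to 2 genes higher and 1 to 3 lower in A549, 0 to 1 lower in PC9, 4 to 5 vector-control calls, and A549 changes of 0.028 to 0.137 (IQGAP1), 1.77 to 1.90 (IQGAP2) and −0.334 to 0.099 (IQGAP3). In PC9 these ranges were 0.003 to 0.131, 0.116 to 0.316 and −0.073 to 0.009. Same-numbered arrays deviated together at r = 0.334 in A549 and 0.077 in PC9, and nothing else pairs them. With the replicate block 5 partner list genes were higher in A549 against 2 without it, and MEF2D gained a call. Signal over background limits IQGAP2 in PC9, where the background filter leaves no value.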

Other observations

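Hepatocyte markers were read because IQGAP2 is known from liver. A signal above the spike-in background does not by itself show expression of a cell type. The leukocyte markers CD3E and CD14 also lay above it on every array of both lines. In A549, 5 of 5 measured hepatocyte markers (ALB, APOA1, TTR, SERPINA1 and FGB) lay above the spike-in background on every array, and their mean log2 signal was 5.90 to 5.995 in EN2 arrays and 5.94 to 6.075 in vector arrays. In PC9, 3 of 5 did so, APOA1, TTR and SERPINA1, with means of 4.76 to 4.80 in EN2 arrays and 4.72 to 4.86 in vector arrays. The A549 groups overlapped in this mean.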
